A study of Mus musculus with 12 samples.

Results

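The genes described here are 32 genes of the endoplasmic reticulum (ER): chaperones and folding enzymes of its lumen, the sensors of the unfolded protein response, the machinery of ER-associated degradation and the Sec61 channel. They were chosen by symbol, and all 32 were found among the 43432 gene identifiers that each of the 12 gene tables listed. Adult neural stem cells (NSCs) of the subventricular zone of male wild-type C57BL/6 mice of 6 to 8 weeks, a niche beside the lateral ventricle that makes new neurons in the adult brain, were grown as monolayers. All cultures had the same medium with EGF, bFGF and B27, and differed in folic acid at 1.5 µM (LF), 10 µM (MF, the reference dose) or 80 µM (HF) for 4 days. Total mRNA and polysome mRNA were sequenced at each dose in 2 libraries, which gave 6 groups. Polysome mRNA came from cells treated with cycloheximide, an inhibitor that freezes ribosomes in place, and from the pooled sucrose gradient fractions with more than 3 ribosomes per mRNA, and total mRNA came from a separate TRIzol extraction. The labels do not say that replicates came from separate animals or cultures, so p-values measure only the spread between these libraries. In bulk cultures, fewer cells that use a gene and less of its mRNA per cell cannot be told apart.

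Secreted and membrane proteins enter the ER through the Sec61 channel and are folded there by chaperones such as BiP, by lectins that hold their sugars and by isomerases that make their disulfide bonds. When unfolded proteins build up, 3 membrane sensors respond: Ern1 (IRE1) splices the Xbp1 mRNA, Atf6 is cut in the Golgi by the proteases Mbtps1 and Mbtps2, and Eif2ak3 (PERK) phosphorylates a translation initiation factor, which lowers protein synthesis and raises that of the factor Atf4. Proteins that fail to fold are pulled back to the cytosol and degraded by the proteasome. Xbp1 and Atf6 act through short promoter elements, of which the ER stress response element (ERSE) is the best known.

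Because these genes are usually switched on as a set through such elements, the promoters were read first. Of the 32 genes, 26 had a promoter window of 250 bases before to 50 bases after the start site in RefSeq, on GRCm38.p6. The ERSE was searched on both strands as CCAAT, 9 bases of any kind and CCACG, and it was present in 9 of the 26 genes (34.6%) against 37 of 27025 genes overall (0.137%). ERSE-II, searched as ATTGG, 1 base and CCACG, was present in 2 of the 26 (7.69%) against 12 of all genes (0.0444%). The core of the element bound by Xbp1, TGACGTG, was present in 1, Hspa5, which is 3.85% against 2.22% of all genes. Several of these genes are those in which the elements were first described, so the match is a description of the set and not a test of it. The matches follow, 5′ to 3′ in the direction of the element, with the searched letters in capitals. They show that the letters between the 2 ends of the ERSE differ from gene to gene.
Hspa5 ERSE, chr2:34772025-34772043, plus strand: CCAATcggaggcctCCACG
Hsp90b1 ERSE, chr10:86705638-86705656, minus strand: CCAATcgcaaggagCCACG
Hsp90b1 ERSE, chr10:86705533-86705551, plus strand: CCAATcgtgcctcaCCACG
Dnajc3 ERSE, chr14:118937827-118937845, plus strand: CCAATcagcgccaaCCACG
Creld2 ERSE, chr15:88819520-88819538, minus strand: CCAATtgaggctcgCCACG
Calr ERSE, chr8:84847075-84847093, plus strand: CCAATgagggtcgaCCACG
Canx ERSE, chr11:50325800-50325818, minus strand: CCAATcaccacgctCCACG
Pdia6 ERSE, chr12:17266491-17266509, plus strand: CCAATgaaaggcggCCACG
Syvn1 ERSE, chr19:6046532-6046550, plus strand: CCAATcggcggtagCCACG
Derl3 ERSE, chr10:75893242-75893260, minus strand: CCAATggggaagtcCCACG
Dnajb11 ERSE-II, chr16:22857852-22857862, plus strand: ATTGGcCCACG
Herpud1 ERSE-II, chr8:94386377-94386387, plus strand: ATTGGgCCACG
The Hspa5 match began 65 bases before the start site, and the 2 matches of Hsp90b1 began 212 and 107 bases before it. Those of Syvn1 and Herpud1 began 44 and 52 bases before it, and that of Dnajb11 began 7 bases after it. The Hspa5 match lies inside the gene as GENCODE draws it, since that model starts farther upstream than the RefSeq one. The 9 genes with an ERSE overlapped the others in the measurements below. Their median log2 ratio of polysome to total mRNA was 0.52 (range -0.43 to 1.31) against 0.62 (range -0.45 to 3.52) in the 17 genes whose window lacked it. In total mRNA, HF against MF, both medians were 0.02 on the log2 scale.

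The depth was 20506797 to 23593252 counts in total libraries and 24193468 to 28170296 in polysome libraries. Replicate 2 of LF polysome mRNA stood apart from the other 5 polysome libraries, at 79.7 on a first principal component that held 50.2% of the variance, against -33.5 to -4 for the others. Markers of NSCs (Nes, Sox2, Vim and 8 more) were present, with 10 of 11 above 10 TPM in every library. Markers of microglia and endothelium summed to at most 2.67 TPM in any library, with Aif1, Cx3cr1 and Cldn5 at 0. Markers of mesenchymal and mural cells summed to 280 to 437 TPM in total mRNA and to 489 to 957 in polysome mRNA, and 3 of the 10 were under 1 TPM throughout.

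Together the 32 genes took 0.655% to 0.664% of all counts in the 6 total libraries. In polysome mRNA they took 1.034% and 1.099% at LF, 0.962% and 0.985% at MF and 1.079% and 1.18% at HF. Their share was thus higher in every polysome library than in any total library, and higher in both HF and both LF polysome libraries than in either MF one. The share is a sum in which abundant genes weigh most. Gene by gene, 11 of the 32 were higher and 11 lower in both LF than in both MF polysome libraries (25.3% and 24.8% of all genes). At HF 17 were higher and 7 lower (26.3% and 28% of all genes). No dose pattern of the set is read from the share. Per length (TPM, mean ± SD over the 6 total libraries), the lectin chaperone Calr was the most abundant, at 601 ± 12.5, followed by Hsp90b1 at 498 ± 12.9. Canx at 430 ± 14.9 came next, with P4hb at 400 ± 7.69 and Hspa5 at 391 ± 9.94. The last 2 did not differ beyond their spread. The sensors were much less abundant: 37.4 ± 1.61 TPM for Eif2ak3, 18.5 ± 0.426 for Atf6 and 11.8 ± 0.685 for Ern1. Derl3, a form of Derlin best known from secretory tissues, was at 0.247 ± 0.136 TPM in total mRNA and 0.443 ± 0.199 in polysome mRNA, with 1 to 12 counts per library, so its ratios carry little information. Between the fractions, Ero1l moved from rank 27 of the 32 in total mRNA to rank 12 in polysome mRNA and Herpud1 from rank 19 to rank 11.

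**Figure D1:**
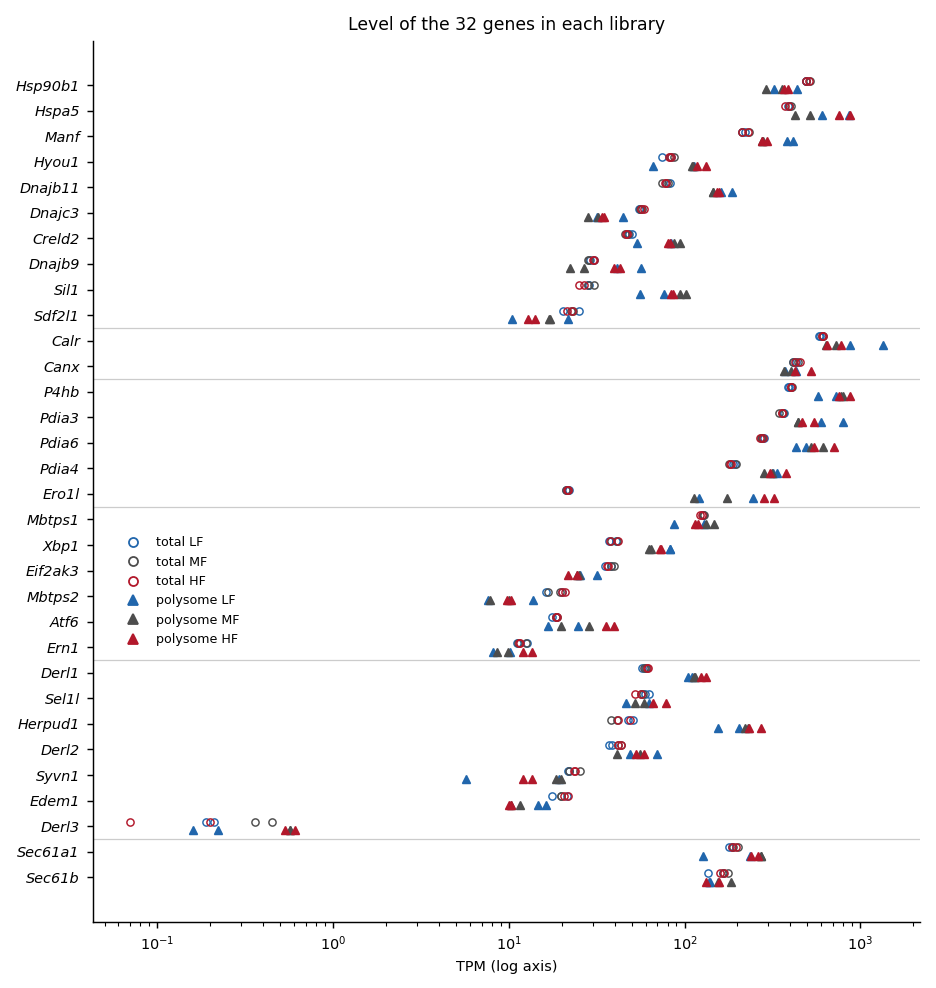
TPM (transcripts per 1000000, log axis) of the 32 genes in each of the 12 libraries, grouped by role. Open circles are total and filled triangles polysome libraries, colored by dose; total libraries of a gene lie close together except those of Derl3, while polysome libraries spread, and Ero1l and Herpud1 lie well to the right of their total mRNA.

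The first comparison asked whether 4 days at a low or a high dose changed the mRNA of these genes. In total mRNA it did not do so detectably. No gene of the 31 tested was called (fold change over 1.2 with an adjusted p under 0.05) by edgeR's quasi-likelihood test in HF against MF, where 0.0863% of all tested genes were called, in LF against MF, where 0.00719% were, or in HF against LF, where 1.79% were. DESeq2 called none either. At an unadjusted p under 0.05, the count was 0, 1 and 0 of 31, against 6.98%, 6.27% and 12.6% of all genes. The largest log2 fold changes were 0.23 ± 0.0892 (SE, adjusted p = 0.691) for Herpud1 and -0.17 ± 0.0961 (adjusted p = 0.82) for Sec61b, both in LF against MF. Total mRNA of a gene varied by a median CV of 3.09% over the 6 libraries, and the median SE of a log2 change in HF against MF was 0.0544. Derl3 was not tested in total mRNA because its counts were too low.

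The second comparison set polysome against total mRNA, which is the ratio the study calls translation efficiency (TE). Over the 3 doses, 21 of the 32 genes were called higher in polysome mRNA, against 32.7% of all tested genes, and 3 lower, against 38.4%. The median log2 ratio was 0.72 over the 32 genes and -0.09 over all 14421 genes tested. At single doses, 16 genes were called higher at LF (25% of all genes), 18 at MF (26%) and 21 at HF (25.7%). Called lower were 0 at LF (28.5% of all genes by edgeR; 8 of the 32 had a ratio below 0 there, 18 had an unadjusted p under 0.05 in either direction, against 59% of all genes, and DESeq2 called none lower), 2 at MF (29.3%) and 3 at HF (30.7%). In the following, levels are CPM (counts per 1000000 counts of TMM-scaled library size), given as replicate 1 and replicate 2, with n = 2 per group, and ratios are log2 (polysome/total) over the 3 doses ± SE. Adjusted p-values of the 21 genes called higher ran from 4.09e-09 (Herpud1) to 0.0137 (Derl3). Ratios compare libraries made from separately prepared RNA, so more mRNA in the cells used for the gradients and more ribosomes per mRNA cannot be told apart.

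**Figure D2:**
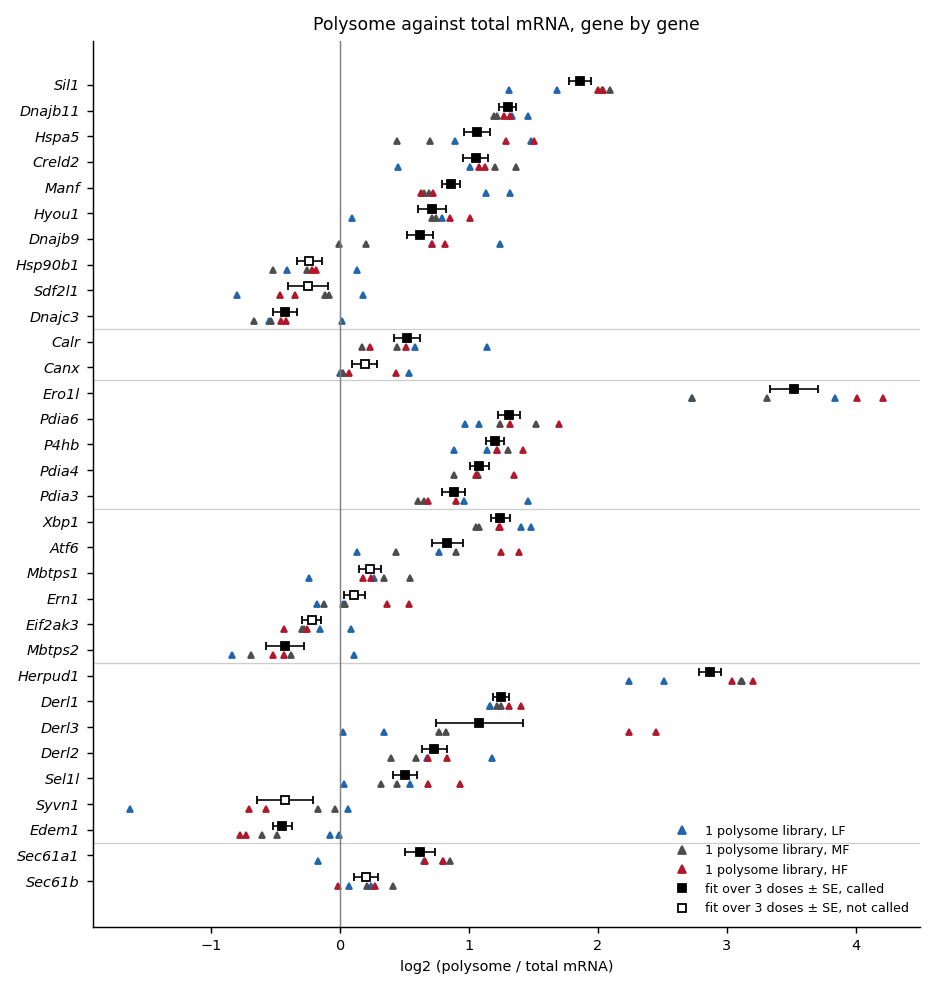
Log2 ratio of polysome to total mRNA for each gene. Squares are the edgeR fit over the 3 doses ± SE (filled where called), and triangles are single polysome libraries against the mean of both total libraries of their dose; Ero1l and Herpud1 lie farthest right, and 7 genes lie below 0.

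Gene positions below are those of GENCODE M21 on GRCm38. Among BiP and its partners, Hspa5 itself (BiP, the Hsp70 of the ER, chr2:34771970-34777547, ENSMUSG00000026864) had a ratio of 1.06 ± 0.103. Its total mRNA was 534 and 551 at LF, 540 and 546 at MF and 546 and 520 at HF. In polysome mRNA it was 1010 and 1510 at LF, 734 and 879 at MF and 1310 and 1510 at HF, so that the highest total library lay below the lowest polysome library and MF lay below both other doses. The nucleotide exchange factors that let BiP release its clients were also called higher. Sil1 had the largest ratio of the group, 1.86 ± 0.0876. Its total mRNA was 23.5 and 24.4 at LF, 23.1 and 25.7 at MF and 22.7 and 21.1 at HF, and its polysome mRNA was 76.7 and 59.1 at LF, 99.7 and 104 at MF and 87.8 and 89.6 at HF. Hyou1, a large Hsp110-type partner of BiP, had a ratio of 0.71 ± 0.109, and 1 library, LF replicate 2, lay close to total mRNA. Its values were 202 and 184 at LF, 207 and 200 at MF and 204 and 198 at HF in total and 333 and 206 at LF, 340 and 333 at MF and 361 and 406 at HF in polysome mRNA.

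The J-domain proteins, which recruit BiP to its clients, were split. Dnajb11 (ERdj3) had a ratio of 1.3 ± 0.0651 with little spread between libraries. Its counts were 74.6 and 81.4 at LF, 76.7 and 73.1 at MF and 76.3 and 77.3 at HF in total mRNA and 214 and 196 at LF, 174 and 171 at MF and 186 and 191 at HF in polysome mRNA. Dnajb9 (ERdj4, which also restrains Ern1) had a ratio of 0.62 ± 0.101, and this was not even over doses: total mRNA was 28.7 and 27.9 at LF, 26.3 and 27 at MF and 28.8 and 28.4 at HF, and polysome mRNA was 46.2 and 66.7 at LF, 26.3 and 30.6 at MF and 46.7 and 50.2 at HF. At MF the 2 fractions of Dnajb9 were at the same level, and it was called at LF and HF but not at MF. Dnajc3 (p58IPK, an inhibitor of eIF2α kinases as well as a co-chaperone) was called lower, at -0.43 ± 0.095. It stood at 160 and 166 at LF, 161 and 168 at MF and 173 and 165 at HF in total mRNA against 111 and 165 at LF, 103 and 113 at MF and 123 and 126 at HF in polysome mRNA, with LF replicate 2 the only polysome library at the level of total mRNA.

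Of the other lumen chaperones, Creld2, a disulfide-related factor that ER stress induces, had a ratio of 1.05 ± 0.0996. Its counts were 32.2 and 31.6 at LF, 30 and 29.5 at MF and 30.3 and 30.3 at HF in total and 64.1 and 43.7 at LF, 76.2 and 68.3 at MF and 64.2 and 65.8 at HF in polysome mRNA. Manf, a secreted factor that is kept in the ER by BiP, had a ratio of 0.86 ± 0.0676. Total mRNA of Manf was 77.9 and 83.2 at LF, 78.8 and 81.5 at MF and 81.9 and 82.8 at HF. Its polysome mRNA was 176 and 201 at LF, 129 and 126 at MF and 136 and 127 at HF, with both LF libraries above the 4 others. Manf shares part of its locus with Rbm15b on the same strand, and reads of the 2 genes may have been divided between them. Hsp90b1 (GRP94, the Hsp90 of the ER) had a ratio below 0, unlike BiP: it was -0.24 ± 0.0953, at an adjusted p of 0.0451 but a fold under 1.2. It measured 731 and 748 at LF, 728 and 776 at MF and 775 and 736 at HF in total mRNA and 555 and 811 at LF, 523 and 629 at MF and 649 and 661 at HF in polysome mRNA, where only LF replicate 2 exceeded the total libraries. Sdf2l1, a small component of the ER chaperone complex, was not called, at -0.25 ± 0.155. Its low counts were 9.88 and 12.5 at LF, 11.2 and 11.1 at MF and 10.7 and 11.3 at HF in total and 12.7 and 6.44 at LF, 10.5 and 10.2 at MF and 7.9 and 8.62 at HF in polysome mRNA. Over the 10 genes of this group, 7 were called higher and 1 lower, and the median ratio was 0.78.

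The lectin chaperones Calr (calreticulin, soluble) and Canx (calnexin, in the membrane) bind the same sugar signal on unfinished glycoproteins. Calr was called higher, at 0.52 ± 0.102. Its total mRNA was 511 and 503 at LF, 526 and 530 at MF and 530 and 528 at HF. In polysome mRNA it reached 1110 and 760 at LF, 714 and 592 at MF and 620 and 754 at HF, and the highest library was LF replicate 1. Canx was not called, at 0.19 ± 0.098 with an adjusted p of 0.106. It had 799 and 766 at LF, 771 and 776 at MF and 805 and 782 at HF in total mRNA and 782 and 1130 at LF, 780 and 784 at MF and 832 and 1070 at HF in polysome mRNA, with overlapping ranges.

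All 5 disulfide enzymes were called higher, with a median ratio of 1.2. Ero1l (chr14:45283087-45318771, ENSMUSG00000021831), the oxidase that recharges the isomerases and passes their electrons to oxygen, had the largest ratio of the 32 genes, 3.52 ± 0.187, which is rank 105 of the 14421 genes tested. Its total mRNA hardly varied: 53.4 and 52.7 at LF, 52.4 and 52 at MF and 53.7 and 52.8 at HF. Its polysome mRNA was 353 and 758 at LF, 347 and 518 at MF and 859 and 987 at HF, so every polysome library lay far above every total library. The isomerases themselves, which swap disulfide bonds in their clients, had smaller and more even ratios. Pdia6 had 1.31 ± 0.0846, from 304 and 321 at LF, 297 and 305 at MF and 301 and 308 at HF in total mRNA to 661 and 614 at LF, 863 and 711 at MF and 760 and 992 at HF in polysome mRNA. P4hb, the founding isomerase and also a subunit of the collagen prolyl hydroxylase, had 1.2 ± 0.0697. Its counts were 601 and 608 at LF, 617 and 625 at MF and 620 and 616 at HF in total and 1330 and 1110 at LF, 1530 and 1450 at MF and 1440 and 1660 at HF in polysome mRNA. Pdia4 had 1.08 ± 0.0732, and was at 251 and 252 at LF, 253 and 236 at MF and 243 and 237 at HF in total and 526 and 526 at LF, 514 and 449 at MF and 499 and 614 at HF in polysome mRNA. Pdia3, which works with the lectin chaperones on glycoproteins, had 0.88 ± 0.0898. It was at 533 and 551 at LF, 503 and 538 at MF and 536 and 531 at HF in total and 1050 and 1490 at LF, 816 and 790 at MF and 856 and 994 at HF in polysome mRNA, highest in LF replicate 2. None of the polysome libraries of these 5 genes overlapped a total library of the same gene.

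The sensors and their processing enzymes did not move as a group, with 2 called higher, 1 lower and a median ratio of 0.17. Xbp1, the factor made when Ern1 splices its mRNA, was called higher at 1.24 ± 0.0735. Gene-level counts do not separate its spliced from its unspliced form. Xbp1 had 38.3 and 43.3 at LF, 41.7 and 39.5 at MF and 44.4 and 39.1 at HF in total mRNA, and 107 and 114 at LF, 85.6 and 84 at MF and 97.6 and 98.6 at HF in polysome mRNA. Atf6 was called higher at 0.83 ± 0.119. Its total mRNA was 76.1 and 74.5 at LF, 75.4 and 77.9 at MF and 77.8 and 77.8 at HF and its polysome mRNA 82.6 and 128 at LF, 103 and 144 at MF and 184 and 203 at HF, with both HF libraries above the 4 others. The other 2 sensors stayed near total mRNA. Ern1 had a ratio of 0.11 ± 0.0793, from 48.2 and 43.6 at LF, 46.1 and 44.6 at MF and 45 and 44.2 at HF in total and 46.7 and 40.6 at LF, 41.3 and 46.6 at MF and 57.3 and 64.3 at HF in polysome mRNA, and it was called higher at HF alone. Eif2ak3 had -0.22 ± 0.0742, below the fold threshold, and was called lower at HF. Its counts were 87 and 93.4 at LF, 91.7 and 95.6 at MF and 90.9 and 91.8 at HF in total and 95.5 and 80.6 at LF, 77.1 and 75.9 at MF and 67.4 and 76.4 at HF in polysome mRNA. Of the 2 proteases that release Atf6, Mbtps2 was called lower at -0.43 ± 0.148 (adjusted p = 0.0228), a call lost with RLE size factors (adjusted p = 0.0575). It was at 45.8 and 39.7 at LF, 37.5 and 42.7 at MF and 45.4 and 44.1 at HF in total and 23.8 and 46.2 at LF, 24.9 and 30.9 at MF and 33 and 31.3 at HF in polysome mRNA, with LF replicate 2 above all total libraries. Mbtps1 had 0.23 ± 0.0878 and was called higher at MF alone. Its counts were 296 and 306 at LF, 298 and 301 at MF and 292 and 295 at HF in total and 360 and 256 at LF, 435 and 377 at MF and 332 and 346 at HF in polysome mRNA.

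In ER-associated degradation, 5 of 7 genes were called higher and 1 lower. Herpud1 (chr8:94386438-94395377, ENSMUSG00000031770), a membrane protein that stabilizes the ubiquitin ligase complex, had the second largest ratio of the 32 genes, 2.87 ± 0.0859. Its total mRNA was 30.4 and 35.9 at LF, 28.2 and 28 at MF and 29 and 32.1 at HF. Its polysome mRNA was 188 and 156 at LF, 243 and 245 at MF and 251 and 280 at HF, with both LF libraries lowest. The effective length that RSEM gave Herpud1 was 1087 to 1226 bases in total and 1299 to 1483 in polysome mRNA. The 2 fractions were thus assigned different mixtures of its transcripts. Its ratio in TPM was smaller than in counts, but so were those of Pdia4 and Dnajb11, whose effective lengths were alike in both fractions. Canx, Sec61b, Mbtps1 and Ern1 had ratios above 0 in counts but lower mean TPM in polysome than in total mRNA. Their means were 422 against 430, 151 against 161, 122 against 127 and 10.4 against 11.8 TPM. In counts, the Derlins, channel proteins of the retrotranslocation complex, were also called higher. Derl1 had a ratio of 1.25 ± 0.0612, with 97.2 and 104 at LF, 101 and 100 at MF and 105 and 106 at HF in total and 224 and 225 at LF, 240 and 235 at MF and 262 and 279 at HF in polysome mRNA. Derl2 had 0.73 ± 0.0972, with 53 and 54.7 at LF, 52.7 and 54.5 at MF and 54.6 and 54.2 at HF in total and 85.5 and 122 at LF, 80.6 and 70.2 at MF and 87.3 and 96.9 at HF in polysome mRNA. Derl3 had 1.08 ± 0.335 on its few counts, and passed the filter on low counts in the fit of all 12 libraries although not in that of total mRNA. Its call was lost with DESeq2 (adjusted p = 0.0766), with no filter (0.0544) and with a replicate block (0.121). Its CPM was 0.134 and 0.123 at LF, 0.278 and 0.227 at MF and 0.127 and 0.047 at HF in total and 0.163 and 0.13 at LF, 0.446 and 0.432 at MF and 0.476 and 0.412 at HF in polysome mRNA. Sel1l, the scaffold of the ligase complex, had 0.50 ± 0.0937. It was at 194 and 189 at LF, 182 and 185 at MF and 184 and 178 at HF in total and 196 and 279 at LF, 229 and 249 at MF and 289 and 344 at HF in polysome mRNA. Syvn1 (Hrd1), the ubiquitin ligase that Sel1l holds, was not called, at -0.43 ± 0.22, and its LF libraries were far apart. Syvn1 had 37.2 and 38.4 at LF, 43.3 and 38.1 at MF and 41.8 and 41.2 at HF in total and 39.3 and 12.2 at LF, 39.5 and 36.1 at MF and 27.8 and 25.4 at HF in polysome mRNA. Edem1, a lectin-like protein that hands misfolded glycoproteins to this complex, was called lower at -0.45 ± 0.0746. It had 70.5 and 59.8 at LF, 64.8 and 66.1 at MF and 72.6 and 68.3 at HF in total and 64.8 and 61.5 at LF, 42.9 and 46.6 at MF and 42.5 and 41.1 at HF in polysome mRNA, and here LF was the dose nearest to total mRNA. Derl2 and Syvn1 each overlap a gene on the opposite strand, Mis12 and Mrpl49, and the sources used here do not give the strand setting of the counting.

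Of the 2 Sec61 subunits, the pore Sec61a1 was called higher at 0.62 ± 0.119. Its counts were 308 and 302 at LF, 325 and 314 at MF and 313 and 325 at HF in total and 479 and 272 at LF, 578 and 557 at MF and 504 and 556 at HF in polysome mRNA, with LF replicate 2 below all total libraries. The small subunit Sec61b was not called, at 0.20 ± 0.0954. It was at 22.6 and 28.2 at LF, 29.3 and 28 at MF and 28.7 and 27 at HF in total and 26.7 and 30.1 at LF, 33.1 and 38 at MF and 33.5 and 27.5 at HF in polysome mRNA. Sec61b was the shortest of the 32 mRNAs, with a median effective length of 286 bases. Over the 32 genes, Spearman's rho between the ratio and the effective length was -0.38 and Pearson's r with log length was -0.18, given as a description across genes that share the same libraries.

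The third comparison asked whether the dose changed polysome mRNA and TE. No gene of the 32 was called in polysome mRNA in HF against MF (0% of all 13433 tested genes called; 4 of the 32 at an unadjusted p under 0.05, against 3.37% of all genes; 0 of the 32 by DESeq2), in LF against MF (0.0223% of all genes; 8 of the 32 unadjusted, against 17.3%; 1 by DESeq2) or in HF against LF (0.0149%; 6 unadjusted, against 14%; 0 by DESeq2). TE gave no call of the 32 in edgeR either: 0% of all genes were called in HF against MF (4 of the 32 at an unadjusted p under 0.05, 0 by DESeq2), 0.236% in LF against MF (8 and 3) and 0.0971% in HF against LF (7 and 2). The unadjusted shares of all genes for TE were 4.15%, 15.8% and 14.7%. Levels in polysome mRNA varied more than in total mRNA, with a median CV of 19.6% over the 6 libraries and a biological coefficient of variation of 0.231 against 0.0433 in the fits. The polysome fit had 3 residual degrees of freedom, and LF replicate 2 entered its common estimate of the spread.

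**Figure D3:**
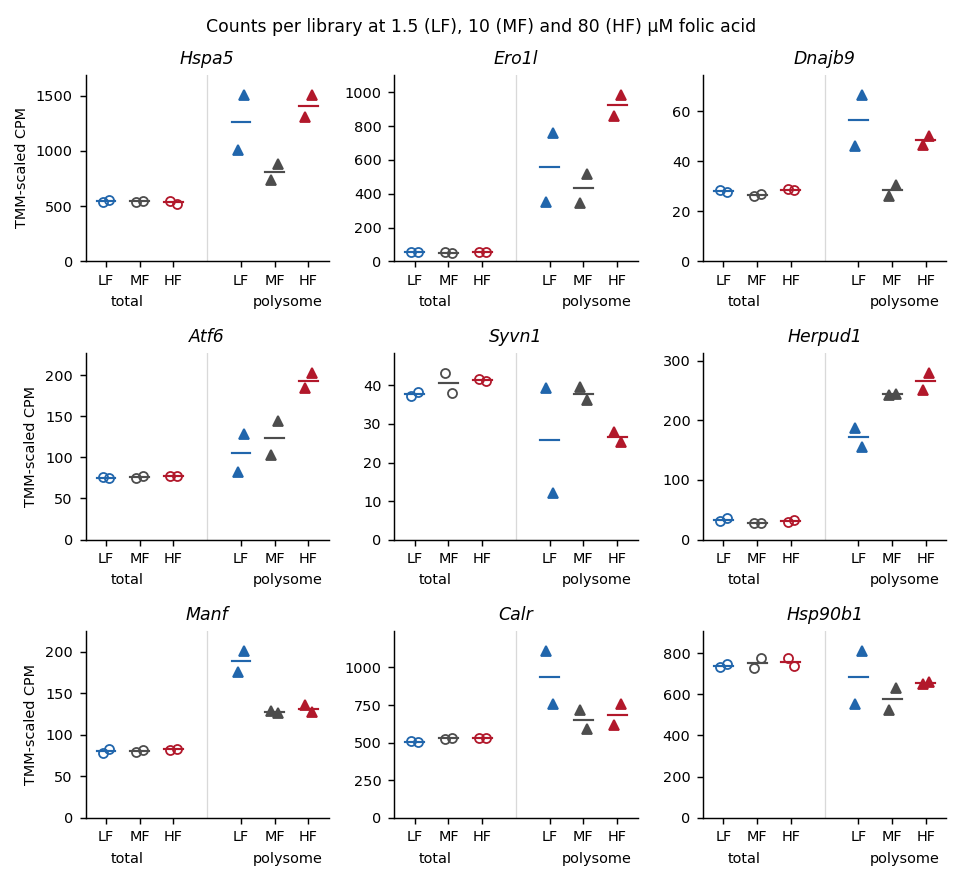
CPM (counts scaled by TMM library size, axes from 0) of 9 of the genes in every library, in total mRNA (open circles) and polysome mRNA (triangles) at LF, MF and HF. Bars are the mean of 2 libraries. Total mRNA varies little across doses beside polysome mRNA, least evenly for Herpud1, at 30.4 and 35.9 CPM in LF against 28.2 and 28 in MF. Polysome mRNA of Hspa5, Ero1l, Dnajb9 and Atf6 is higher in both HF than in both MF libraries.

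The 4 genes at an unadjusted p under 0.05 in polysome HF against MF were Hspa5, Ero1l, Dnajb9 and Atf6. Hspa5 had a log2 fold change of 0.80 ± 0.224, at 1310 and 1510 CPM in HF against 734 and 879 in MF, with an adjusted p of 0.948 in the fit of all doses. When the fit held only the 4 MF and HF polysome libraries, the SE was 0.140 and the adjusted p was 0.0096. Ero1l had the largest change, 1.09 ± 0.352 (adjusted p = 0.948), and was called at an adjusted p of 0.0087 in the fit of 2 doses. Dnajb9 had 0.77 ± 0.246 (adjusted p = 0.948), and 0.0106 in the fit of 2 doses. Atf6 had 0.65 ± 0.264 (adjusted p = 0.948), and 0.0296 in the fit of 2 doses. In that fit Syvn1 was called lower, at -0.51 ± 0.136 with an adjusted p of 0.0478, from 39.5 and 36.1 CPM in MF to 27.8 and 25.4 in HF. So 4 of the 32 genes were called higher without the LF libraries, against 2.24% of all genes tested, and 1 lower, against 3.1%. The fold changes of these 5 genes were the same in both fits to 2 decimals.

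For TE in HF against MF, the fit of 2 doses called Hspa5 (0.83 ± 0.151, adjusted p = 0.0269), Ero1l (1.07 ± 0.225, adjusted p = 0.0485) and Dnajb9 (0.66 ± 0.148, adjusted p = 0.0485) higher, against 0.66% of all genes. In the fit of all doses the same values were 0.83 ± 0.249, 1.06 ± 0.417 and 0.66 ± 0.248, each at an adjusted p of 0.982. The sensor Ern1 was the fourth gene of the 32 at an unadjusted p under 0.05 there. Since total mRNA of these genes was level, the TE differences were nearly those of polysome mRNA.

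Counted by overlap alone, 17 of the 32 genes were higher in both HF than in both MF polysome libraries, against 26.3% of all genes, and 7 were lower, against 28%. The 17 included BiP and its partners Hyou1, Dnajb9, Dnajb11 and Dnajc3, and the 7 were Sil1, Sdf2l1, Creld2, Mbtps1, Edem1, Syvn1 and Sec61a1. The median log2 change over the 32 was 0.17, against 0.0 over all genes. The summed level of the mesenchymal and mural markers moved with HF in the same libraries, at 796 and 957 TPM in HF against 620 and 599 in MF, while in total mRNA it was lower at HF, at 280 and 331 against 381 and 403. Neuron and neuroblast markers summed to 67.4 and 72.2 TPM in HF polysome mRNA against 111 and 94.1 in MF, and NSC markers to 7320 and 7770 against 7240 and 7530. In total mRNA, neuron and neuroblast markers were at 177 and 195 TPM in HF against 187 and 180 in MF. The NSC markers were there at 8550 and 7930 against 7530 and 7160. Oligodendrocyte-lineage markers summed to 250 and 209 TPM in HF polysome mRNA against 295 and 336 in MF. In total mRNA they went the other way, at 432 and 408 against 398 and 377. Astrocyte markers overlapped in polysome mRNA, at 444 and 588 TPM in HF against 594 and 543 in MF. In total mRNA they were at 463 and 472 against 494 and 478. The part of these markers in the differences was not tested.

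In LF against MF, 11 genes were higher in both LF polysome libraries (25.3% of all genes) and 11 lower (24.8%). In the same LF libraries NSC markers summed to 8890 and 8980 TPM and neuron and neuroblast markers to 63 and 61.4, the first above and the second below both MF libraries. In total mRNA the NSC markers went the other way, at 6830 and 6760 TPM in LF against 7530 and 7160 in MF. Neuron and neuroblast markers were there at 188 and 194 against 187 and 180. Astrocyte markers summed to 495 and 425 TPM in LF polysome mRNA against 594 and 543 in MF, and oligodendrocyte-lineage markers overlapped, at 322 and 157 against 295 and 336. The part of these markers in the result was not tested. The largest increase was that of Dnajb9, 0.97 ± 0.247 (adjusted p = 0.171), at 46.2 and 66.7 CPM in LF against 26.3 and 30.6 in MF. Pdia3 had 0.65 ± 0.201 (adjusted p = 0.199), Hspa5 0.63 ± 0.224 (adjusted p = 0.235) and Manf 0.55 ± 0.178 (adjusted p = 0.210). Herpud1, at 188 and 156 CPM in LF against 243 and 245 in MF, lay on the other side. At the lower end stood Derl3, at -1.56 ± 0.607, on 4 and 3 counts in LF against 11 and 12 in MF. DESeq2 called Dnajb9 alone of the 32 in polysome mRNA and, for TE, Dnajb9 and Manf higher and Herpud1 lower. The number of calls turned on which LF library entered the fit, over all genes as well as the 32. Without LF replicate 2, the 3 genes Calr, Dnajb9 and Edem1 were called, all higher, against 2.65% of all genes called higher and 4.18% lower. Without LF replicate 1, 21 of the 32 were called, 12 higher and 9 lower, against 23.8% and 26.7% of all genes. Each of these fits left LF with 1 library, which was assumed to vary like the other groups, so its calls are no replicate check of any gene.

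In HF against LF, the extremes were Derl3 at 1.58 ± 0.610 (adjusted p = 0.313) and Edem1 at -0.58 ± 0.200 (adjusted p = 0.278). Atf6 followed at 0.89 ± 0.265, Ero1l at 0.75 ± 0.35 and Herpud1 at 0.64 ± 0.183, and none of these was called. The comparisons with MF share the same 2 MF libraries. Higher in both than in MF without overlap were 6 genes, Hspa5, Dnajb9, Dnajb11, Pdia3, Xbp1 and Derl2. The share of all genes higher in both was not counted. Taken singly, 26.3% of all genes were higher in HF and 25.3% in LF, so no dose pattern of the set is read from the 6. In the plot of dose effects, total mRNA of the 31 genes tested lay close to 0 and polysome mRNA spread to both sides of it.

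**Figure D4:**
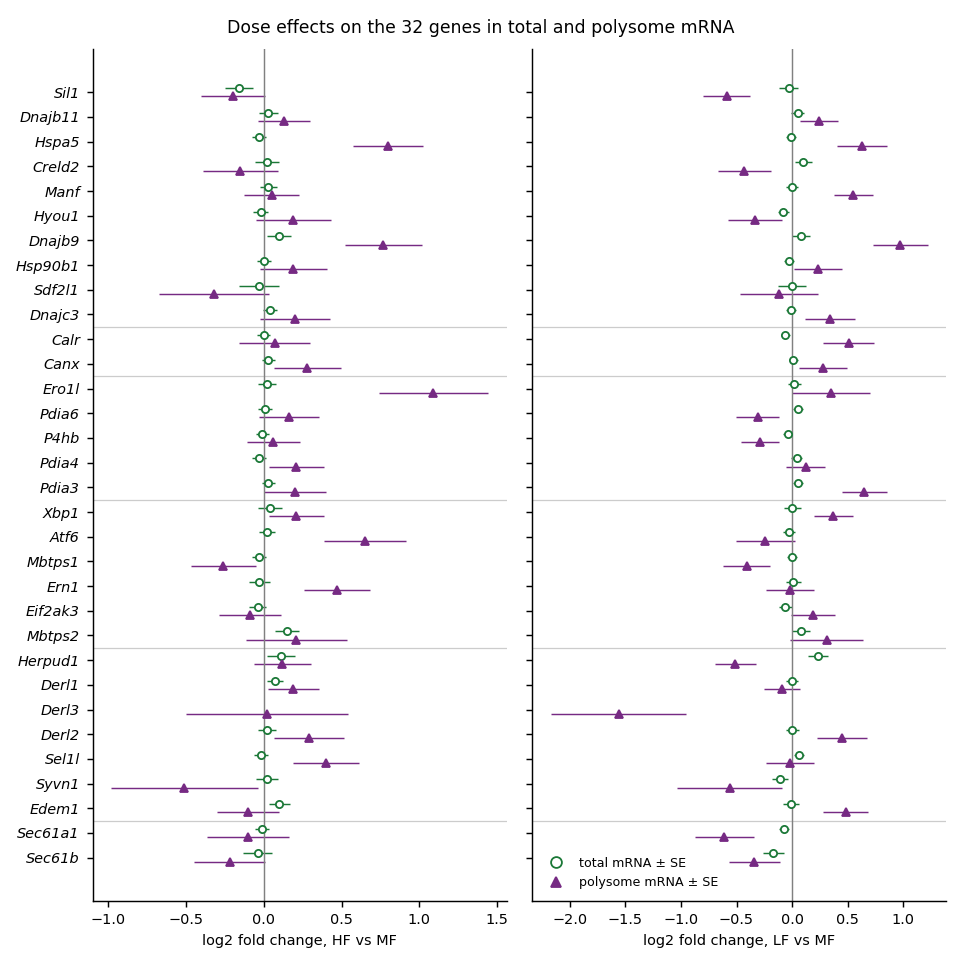
Log2 fold change ± SE (edgeR, fits of all doses) of the 32 genes in HF against MF (left) and LF against MF (right). Open circles are total and triangles polysome mRNA; total mRNA of the 31 genes tested (Derl3 was not) stays within -0.17 and 0.23, and polysome mRNA reaches from -0.51 to 1.09 at HF and from -1.56 to 0.97 at LF.

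Other genes of the same pathways were listed for comparison. Over the 3 doses, 80 of 118 such genes were called higher in polysome mRNA and 13 lower, with a median ratio of 0.71, next to 0.72 for the 32 genes. Among 36 other ER folding enzymes, 26 were called higher and 4 lower (median 0.81), from Cnpy2 at 2.16 ± 0.0694 and the collagen chaperone Serpinh1 at 2.15 ± 0.075 to Tmx3 at -0.55 ± 0.171 and Dnajc1 at -0.80 ± 0.0815. Among 25 other degradation genes, 15 were called higher and 2 lower (median 0.40), with Vimp highest at 1.62 ± 0.0781 and Edem3, a relative of Edem1, lowest at -1.29 ± 0.132. Among 34 genes of the translocon, signal recognition and glycosylation, 24 were called higher and 4 lower (median 0.72), from Krtcap2 at 2.05 ± 0.109 to Magt1 at -1.14 ± 0.135. In total mRNA, 1 of the 118 was called in any dose comparison: Ube2g2, a ubiquitin-conjugating enzyme, at 0.27 ± 0.06 in HF against LF (adjusted p = 0.019), which DESeq2 did not call. Between doses edgeR called 0 of the 118 in polysome mRNA, with 5, 37 and 33 at an unadjusted p under 0.05 in HF against MF, LF against MF and HF against LF (3.37%, 17.3% and 14% of all genes), where DESeq2 called 0, 8 and 6. For TE it called 0 as well, with 4, 30 and 27 unadjusted (4.15%, 15.8% and 14.7% of all genes) and 0, 6 and 10 by DESeq2.

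The widest ratios of the pathway were found in 23 other regulators of the response, of which 15 were called higher and 3 lower (median 0.96). Trib3, a pseudokinase that Atf4 induces, had 7.70 ± 0.145. It was at 0.7 to 1.39 TPM in total mRNA, and at 115 and 97.5 TPM in LF, 185 and 240 in MF and 251 and 234 in HF polysome mRNA. Chac1, a glutathione-degrading enzyme and target of Atf4, had 6.46 ± 0.201. Ddit3 (CHOP) had 4.85 and stood at 254 and 438 TPM in LF, 524 and 716 in MF and 1174 and 1053 in HF polysome mRNA, against 24.7 to 31.5 in total mRNA. Atf4 itself had 3.04. Ddit3 and Atf4 were named after their values were seen. Neither Trib3 nor Ddit3 was called by edgeR between doses in polysome mRNA or TE. For TE of Ddit3 the adjusted p was 0.297 in LF against MF, 0.982 in HF against MF and 0.0786 in HF against LF. For Trib3 these were 0.106, 0.983 and 0.0771. At the other end were the death gene Bcl2l11 at -1.26 ± 0.0829 and Eif2a at -1.05 ± 0.13.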

How the data were processed

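Per the labels, the authors aligned reads to mm10 with Bowtie2 2.2.9 and made gene tables with RSEM 1.3.0. The deposited expected counts divide reads that fit several genes by likelihood, so 4.04% to 5.95% of values in a library were not whole, and they were rounded here. TPM in the deposited tables is the same quantity per transcript length, with the same sum in every library. It was used here for levels and ranks of genes, also between fractions and doses, and for marker sums, but in no test. Of the 43432 identifiers, 42548 (97.96%) matched GENCODE M21, on the same build, and gave symbols and positions; 884 did not match and stayed in the tests.

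The count test was that of edgeR 4.0.16, run in R 4.3.3 (TMM, filterByExpr, robust quasi-likelihood F test, Benjamini-Hochberg adjustment over all genes tested), in the 6 total libraries (13912 genes), the 6 polysome libraries (13433) or all 12 (14421, with TE as an interaction). A call needed an adjusted p under 0.05 and a fold above 1.2 either way, the thresholds of the study. All doses entered each fit without a replicate block. SE was the log2 fold change divided by the square root of F. Xtail, used by the study for TE, was not used here. Alternatives were DESeq2 1.42.0, RLE and upper-quartile scaling, no filter, the doses compared alone, a replicate block and each library left out. Replicates differed beyond sampling noise (chi-square per degree of freedom 2.78 to 143.06), and each counted as 1. Counts are not molecules, so depth gives a lower limit of the error. Promoter windows came from RefSeq, GRCm38.p6, and those of 6 genes were not used here.

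The 32 genes and the lists were chosen with earlier results of these data known. Named were all 32 genes, and of the other lists the genes called, at most 2 in each direction per list and comparison; Ddit3 and Atf4 were added after their values were seen.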

Additional observations from a re-analysis of the deposited data

How the results depend on the processing

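In total mRNA, none of the 32 genes was called under any alternative run. Polysome against total mRNA over the 3 doses called 24 of the 32 genes, against 10242 of all 14421 genes tested. At LF, MF and HF it called 16, 20 and 24 of the 32, against 7724, 7962 and 8135 of all genes. With a library left out these counts moved, among the 32 and among all genes as well. Derl3 lost its call with DESeq2 (adjusted p = 0.0766), with no filter (0.0544) and with the block (0.121). Mbtps2 lost its call with RLE size factors, and Hspa5 at MF with the block (adjusted p = 0.0557). The median log2 ratio over the 3 doses was -0.22 in DESeq2, over identifiers without a filter on low counts. In edgeR it was -0.09 over the 14421 genes that passed the filter, so the 2 medians cover different genes. At LF, MF and HF the DESeq2 medians were -0.02, -0.01 and -0.02. The calls between doses rested on few libraries. With the compared doses alone, polysome mRNA in HF against MF called 5 of the 32 and TE 3. DESeq2 called 1 in polysome mRNA and 3 in TE for LF against MF, and 2 in TE for HF against LF, and no filter on low counts called 1 in polysome mRNA for LF against MF. With each library left out in turn, polysome mRNA called between 0 and 6 of the 32 in HF against MF, 0 and 21 in LF against MF, and 0 and 17 in HF against LF, and TE between 0 and 3, 0 and 21, and 0 and 18. Over all genes the same fits called between 0 and 783, 2 and 6987, and 2 and 5438 in polysome mRNA, and between 0 and 443, 2 and 6853, and 2 and 5576 in TE, so the calls rose among all genes as well. A group left with 1 library was assumed to vary like the others. The high ends came without an LF polysome library, and leaving out replicate 1 rather than 2 gave the more calls in comparisons with LF. Some values turned direction with 1 library left out. In LF against MF, Ero1l ranged from -0.30 (without LF polysome replicate 2) to 0.81 (without replicate 1) in polysome mRNA and from -0.32 to 0.78 in TE. Atf6 there ranged from -0.58 to 0.06 in polysome mRNA, with 0.02 without MF polysome replicate 2, and from -0.55 to 0.08 in TE, with 0.05 without that library. In HF against LF, Dnajb9 ranged from -0.47 (without LF polysome replicate 1) to 0.07 (without replicate 2) in polysome mRNA and from -0.47 to 0.05 in TE, and Hspa5 from -0.10 (without replicate 1) to 0.49 (without replicate 2) in polysome mRNA and from -0.07 to 0.51 in TE. Syvn1 in polysome against total mRNA at LF ranged from -1.58 (without replicate 1) to 0.06 (without replicate 2). The cause was not tested.

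Groups share replicate numbers, and the labels do not say whether a number marks 1 culture. Correlations of the deviations of same-numbered libraries ran from -0.142 to 0.137 over the 15 pairs of groups, so no strong shared effect was seen. Such correlations cannot show that same-numbered libraries came from separate cultures. With a replicate block, 25 of the 32 genes were called over the 3 doses, 16, 20 and 22 at LF, MF and HF, and 0 in each comparison of doses. Over all genes tested, the block called 9029 over the 3 doses and 6747, 7370 and 7315 at LF, MF and HF. Among all genes, the block moved the calls in total mRNA from 12 to 87 (HF against MF) and from 1 to 36 (LF against MF), in polysome mRNA from 0 to 2, 3 to 231 and 2 to 41 (HF against MF, LF against MF, HF against LF), and in TE from 34 to 8 (LF against MF) and 14 to 3 (HF against LF). In the same order of comparisons, no filter gave 99, 50 and 421 genes in total mRNA (12, 1 and 249 with it), 10, 522 and 242 in polysome mRNA and 10, 229 and 187 in TE. DESeq2 gave 2 in total mRNA for LF against MF and 163 for HF against LF, 19, 641 and 338 in polysome mRNA and 27, 647 and 703 in TE. The compared doses alone gave 34, 2 and 147 in total mRNA, 707 in polysome mRNA for HF against MF, and 217, 4 and 2 in TE. TE gave 54 and 39 (LF against MF, HF against LF) with RLE size factors and 22 and 31 with upper-quartile scaling. Depth limits Derl3, with 1 to 12 counts per library.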

Other observations

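Chaperones of the cytosol and the mitochondrion, listed beside the ER genes, also differed between polysome and total mRNA. Of 33 tested, 22 were called higher in polysome mRNA over the 3 doses and 3 lower, with a median log2 ratio of 0.58. The mitochondrial Hsp70 Hspa9 had the largest ratio, 2.38 ± 0.134, and the mitochondrial J-domain protein Dnaja3 followed at 1.98 ± 0.0719. The inducible cytosolic Hsp90 gene Hsp90aa1 was lowest at -0.88 ± 0.126, and the Hsp70 gene Hspa2 was at -0.54 ± 0.106. The higher ratios were thus not seen in ER genes alone, and no test of a difference between the lists was made.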
